A study of Mus musculus with 6 samples.

Results

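The 10 genes described here encode subunits of the transcription factor NF-kB (Nfkb1, Rela, Nfkb2 and Relb), inhibitors of the pathway (Nfkbia, Nfkbiz and Tnfaip3), a receptor that feeds into it (Tlr4) and inflammatory target genes (Il18 and Icam1). They were chosen by gene symbol, as a known partner pathway of TonEBP, and all 10 were among the 24346 symbols listed for every library. The RNA was hippocampal and came from C57BL/6 mice aged 12 months, in 3 libraries labelled TonEBP+/- (HET 1 to HET 3) and 3 from wild-type (TonEBP+/+) littermates (WT 1 to WT 3), all bred on a C57BL/6J background. TonEBP (tonicity-responsive enhancer binding protein) is the product of Nfat5, and a TonEBP+/- mouse carries 1 disrupted allele of it, of which the labels do not name the part removed. Values are given in FPKM, which counts sequenced fragments per length of transcript and per depth of the library, a unit read from the deposited log2 values because no label names it. Where that reading is wrong, the FPKM values change and the log2 differences do not, as long as the base of the logarithm is 2.

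NF-kB is a family of dimeric transcription factors that share a DNA-binding Rel homology region. In resting cells inhibitor proteins hold the dimers in the cytoplasm. Signals from Toll-like, interleukin and tumour necrosis factor receptors activate a kinase that marks the inhibitor for destruction, and the freed dimers enter the nucleus and switch on inflammatory genes, among them those of their own inhibitors. In the brain the pathway is studied mostly in microglia, endothelium and astrocytes, and TonEBP, whose own DNA-binding region is related to that of NF-kB, is known to act with it at inflammatory promoters in macrophages.

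Read as FPKM, the step between low values corresponded to an estimated 7910000 (HET 1) to 12580000 (HET 3) fragments per library. Nfat5 itself was at 8.25, 9.31 and 8.42 FPKM in HET 1 to HET 3, against 10.5, 8.39 and 9.72 FPKM in WT 1 to WT 3. The ranges overlapped, and the log2 difference of -0.12 (95% interval -0.34 to 0.09, limma adjusted p = 1.00) lay apart from the -0.87 that a loss of 50% would give. A whole-gene value can count transcripts of a disrupted allele, so this does not check the labels, and every direction below is that of the libraries as labelled. The 12 hippocampal neuron markers were all measured above 1 FPKM in at least 3 libraries and summed to 877 to 1000 FPKM in libraries labelled TonEBP+/- and 854 to 1080 FPKM in wild-type libraries. HET 2 and HET 3 stood apart by thalamus markers, whose 14 genes summed to 200 FPKM in each, against 366 FPKM in HET 1 and 330 to 375 FPKM in wild-type libraries. The marker lists were chosen with earlier results of these data known. Choroid plexus markers ranged from 101 to 3480 FPKM in libraries labelled TonEBP+/- and from 286 to 2910 FPKM in wild-type libraries. The files of HET 2 and WT 2 listed 3 and 14 genes with values between 0 and 0.001 FPKM, whereas the other 4 files listed 2199 to 2609. The values within each kind of file are therefore given beside each of the 10 genes. The labels number the mice but do not say how they were kept apart, so the p-values measure the spread between these samples.

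Promoter sequences are shown for 4 of the genes to set windows that carry letters NF-kB or TonEBP is known to bind (Nfkbia, Tnfaip3 and Icam1) beside that of Il18, which carries none of those searched. The RefSeq promoter table (GRCm38.p6) held windows for 6 of the 10 genes (Rela, Nfkb2, Nfkbia, Tnfaip3, Il18 and Icam1). Positions are counted back from the annotated start, with -1 as the last base before it, and each window holds the 250 bases before that start, read along the gene's strand. Matches on either strand to the kappaB consensus, the TonE consensus or its core TGGAAA are in capitals.
Nfkbia: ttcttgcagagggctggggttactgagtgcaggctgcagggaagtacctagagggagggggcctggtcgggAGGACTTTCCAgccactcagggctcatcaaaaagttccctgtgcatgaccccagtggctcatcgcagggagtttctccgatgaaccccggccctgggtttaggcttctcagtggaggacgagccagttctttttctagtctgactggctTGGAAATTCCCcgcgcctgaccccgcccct
Tnfaip3: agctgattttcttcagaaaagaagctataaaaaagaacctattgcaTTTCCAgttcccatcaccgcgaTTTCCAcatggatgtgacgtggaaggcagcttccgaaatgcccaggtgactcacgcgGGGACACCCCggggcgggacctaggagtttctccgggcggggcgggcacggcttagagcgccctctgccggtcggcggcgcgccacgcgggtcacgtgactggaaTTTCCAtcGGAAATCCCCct
Icam1: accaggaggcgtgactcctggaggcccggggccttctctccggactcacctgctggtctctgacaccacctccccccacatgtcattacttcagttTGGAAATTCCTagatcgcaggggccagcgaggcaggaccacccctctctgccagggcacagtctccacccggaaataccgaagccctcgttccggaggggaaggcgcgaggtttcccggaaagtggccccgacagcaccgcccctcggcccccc
Il18: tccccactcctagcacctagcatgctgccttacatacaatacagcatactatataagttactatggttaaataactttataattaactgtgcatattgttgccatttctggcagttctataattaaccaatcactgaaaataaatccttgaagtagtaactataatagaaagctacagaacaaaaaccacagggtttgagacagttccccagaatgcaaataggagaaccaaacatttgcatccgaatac

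The Nfkbia window (chr12:55492648-55492897, minus strand) held a kappaB match from -29 to -20 that lay inside a TonE match from -30 to -20, so that the same letters fitted both consensus sequences. A further TonE match ran from -179 to -169. The Tnfaip3 window at the outermost annotated start (chr10:19015411-19015660, minus strand) held kappaB matches from -125 to -116 and from -12 to -3, and TonE cores from -204, -182 and -20. The Icam1 window (chr9:21015690-21015939, plus strand) had a TonE match from -154 to -144 and no match to the kappaB consensus as written. The letters TGGAAATTCC of that TonE match differ from the kappaB consensus only in their first base. Near matches were not searched, so the absence of a match does not mean that NF-kB cannot bind there. The Il18 window (chr9:50554450-50554699, plus strand) had a match to neither consensus. A kappaB match stood in 3 of the 6 genes with a window (Nfkb2, Nfkbia and Tnfaip3) and in 4.46% of the 27025 genes in the table. A TonE match stood in 2 of the 6 (Nfkbia and Icam1) and in 5.01% of all, and the core in 4 of the 6 and in 20.9% of all. A gene was counted when any of its windows matched, and the 6 genes held 9 windows, against 32851 windows for all 27025. The TonE core of Nfkb2 lay in a window that is not drawn, and the other Tnfaip3 window held no match. The genes were chosen as members of this pathway, several of them known NF-kB targets, so these shares are a description. A match is a string of letters and not a measured binding site.

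**Figure D1:**
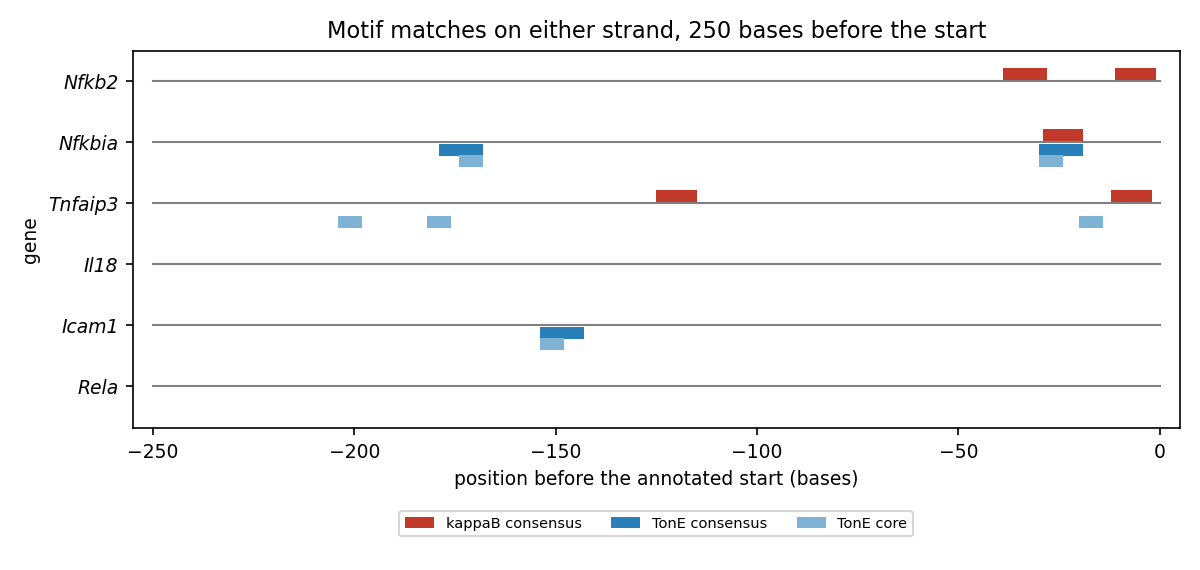
Motif matches in the 250 bases before the annotated start of 6 genes. The horizontal axis is the position before the start in bases, each grey line is 1 promoter window, and bars mark kappaB matches (red), TonE matches (dark blue) and TonE cores (light blue) on either strand. The kappaB and TonE bars of Nfkbia coincide near -25, Il18 and Rela carry none, and for Nfkb2 and Tnfaip3 the window of the first listed start is drawn. The TonE core of Nfkb2 lies in a window that is not drawn.

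Among the subunits, the question was whether the dimers' building blocks were transcribed differently in the hippocampus with 1 disrupted TonEBP allele. All 4 subunit genes had values that overlapped between the genotypes, and so did their summed level with Rel, the remaining member of the family. Nfkb1 encodes p105, the precursor of the p50 subunit of the classical dimer. It was at 6.94, 5.94 and 6.51 FPKM in HET 1 to HET 3, against 5.91, 6.97 and 5.78 FPKM in WT 1 to WT 3. One library of each genotype was near 7 FPKM and the ranges overlapped almost fully. The log2 difference was 0.05 (SE 0.0992, 95% interval -0.17 to 0.27, limma adjusted p = 1.00), with 0.17 among the 4 libraries whose files list tiny values and -0.20 between HET 2 and WT 2. It came to 0.003 without HET 1 and 0.12 without WT 2.

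Rela encodes p65, the subunit that carries the transactivation domain of the classical dimer. Its values were 2.85, 2.56 and 2.44 FPKM in libraries labelled TonEBP+/-, against 3.18, 2.58 and 3.37 FPKM in wild-type libraries. WT 1 and WT 3 were the highest of the 6 and WT 2 lay among the libraries labelled TonEBP+/-. Rela was the subunit with the largest negative difference, -0.16 on the log2 scale (SE 0.116, 95% interval -0.42 to 0.10, limma adjusted p = 1.00; exact permutation test, two-sided, p = 0.2). It was -0.23 among the 4 libraries whose files list tiny values and -0.01 between HET 2 and WT 2, and it came to -0.24 without WT 2 and -0.10 without WT 3. Both members of the alternative pathway were at low levels. Relb, whose product pairs with p52, was at 1.85, 2.30 and 2.40 FPKM in libraries labelled TonEBP+/- and at 2.16, 2.06 and 1.39 FPKM in wild-type libraries. WT 3 was the lowest and the other 5 libraries were interleaved, with a log2 difference of 0.16 (SE 0.142, 95% interval -0.16 to 0.47, limma adjusted p = 1.00) that came to 0.03 without WT 3. It was 0.18 among the 4 libraries whose files list tiny values and 0.11 between HET 2 and WT 2.

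Nfkb2, which encodes p100, the precursor of p52, was under 1 FPKM in all 6 libraries, at 0.823, 0.963 and 0.810 FPKM in HET 1 to HET 3 and at 0.904, 0.666 and 0.949 FPKM in WT 1 to WT 3. The groups overlapped (log2 difference 0.02, two-sided exact permutation p = 0.8), with -0.09 among the 4 libraries whose files list tiny values and 0.24 between HET 2 and WT 2. Its exons overlap, on the other strand, those of Psd, which was at 101 to 129 FPKM. No source used here says whether reads were counted by strand, so part of this value could come from Psd. The first Nfkb2 promoter window (chr19:46304487-46304736, plus strand) held overlapping kappaB matches between -39 and -29 and another from -11 to -2.

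The 5 Rel family genes summed to 14.1, 12.7 and 13.1 FPKM in HET 1 to HET 3, against 13.3, 13.7 and 12.8 FPKM in WT 1 to WT 3 (two-sided exact permutation p = 1). Nfkb1 made up 46.9% to 49.8% of that sum in libraries labelled TonEBP+/- and 44.3% to 51.1% in wild-type libraries. Rela followed with 18.7% to 20.3% in libraries labelled TonEBP+/- and 18.9% to 26.4% in wild-type libraries. Nfkb1 was at 2.32 to 2.67 times the FPKM of Rela in libraries labelled TonEBP+/- and at 1.71 to 2.70 times in wild-type libraries, and the ranges overlapped (two-sided exact permutation p = 0.4). Homo- and heterodimers differ in what they activate, but transcript shares do not give the dimers present.

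**Figure D2:**
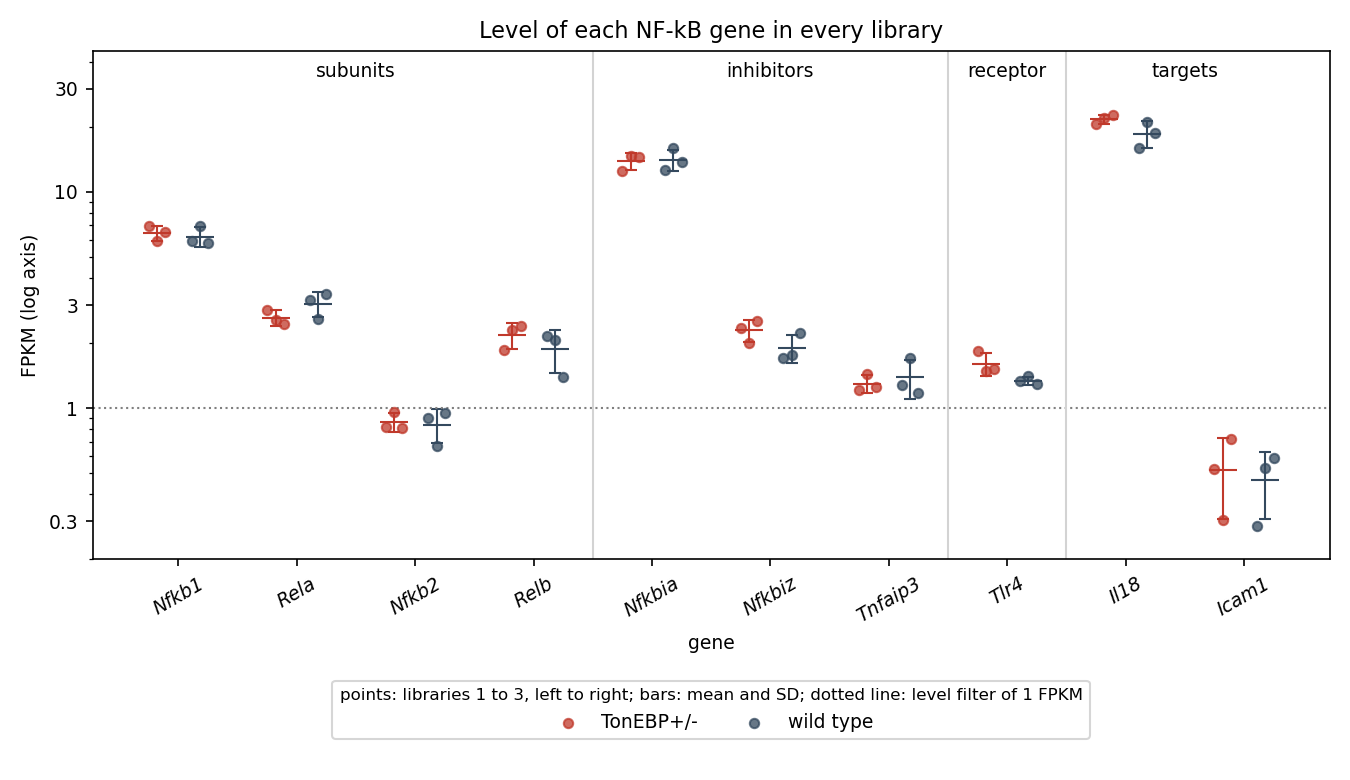
Level of the 10 genes in every library, in FPKM on a log axis, with libraries labelled TonEBP+/- (red) left of wild-type libraries (dark) and bars for the mean and SD of 3. Points of the genotypes overlap for 9 genes, and only for Tlr4 does the lowest red point, 1.48 FPKM, lie above the highest dark point, 1.41 FPKM.

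The inhibitor genes likewise had overlapping values. Nfkbia encodes IkB-alpha, which holds the classical dimer in the cytoplasm and is rapidly remade when NF-kB is active, so that its transcript is widely read as a sign of recent activity. It was the second highest of the 10 genes, at 12.5, 14.7 and 14.5 FPKM in HET 1 to HET 3, against 12.7, 15.9 and 13.7 FPKM in WT 1 to WT 3. HET 1 was the lowest and WT 2 the highest, with the other 4 between them. The log2 difference of -0.02 (SE 0.0985) had a 95% interval of -0.24 to 0.20 (limma adjusted p = 1.00), with 0.03 among the 4 libraries whose files list tiny values and -0.10 between HET 2 and WT 2. Its level was 4.38, 5.75 and 5.95 times that of Rela in HET 1 to HET 3 and 3.99, 6.15 and 4.06 times in WT 1 to WT 3, which overlapped (two-sided exact permutation p = 0.4). Nfkbia is the gene in whose promoter, printed above, matches to the kappaB and TonE consensus coincide.

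Nfkbiz encodes IkB-zeta, a nuclear member of the inhibitor family that switches on a second wave of inflammatory genes as well as restraining others. Libraries labelled TonEBP+/- were at 2.35, 2.00 and 2.52 FPKM and wild-type libraries at 1.71, 1.77 and 2.23 FPKM. WT 3 lay above HET 2, so the groups overlapped, and the log2 difference of 0.18 (SE 0.123, 95% interval -0.09 to 0.46) had a limma adjusted p of 1.00. Within the kinds of file it was 0.22 in the 4 libraries that list tiny values and 0.11 for HET 2 against WT 2. Tnfaip3 encodes A20, a ubiquitin-editing enzyme that shuts the pathway off upstream of the kinase. It was at 1.22, 1.44 and 1.25 FPKM in libraries labelled TonEBP+/- and at 1.28, 1.71 and 1.18 FPKM in wild-type libraries. The second library of each genotype was the highest of its group, and the log2 difference was -0.05 (SE 0.131, 95% interval -0.34 to 0.25, limma adjusted p = 1.00). The 4 libraries that list tiny values gave 0.003 and HET 2 against WT 2 gave -0.15.

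Tlr4, the receptor for bacterial lipopolysaccharide and a source of NF-kB activation in microglia, was the only one of the 10 genes in which the libraries of the genotypes did not overlap. It was at 1.84, 1.48 and 1.52 FPKM in HET 1 to HET 3, against 1.33, 1.41 and 1.29 FPKM in WT 1 to WT 3. HET 1 was the highest, and HET 2 exceeded WT 2 only narrowly. The log2 difference was 0.16 (SE 0.119, 95% interval -0.11 to 0.42), with a limma adjusted p of 1.00 and a two-sided exact permutation p of 0.1, which is the lowest reachable with 3 libraries a group. Genotypes that did not overlap were found in 8.52% of the 13122 tested genes, 4.13% with higher values in libraries labelled TonEBP+/-, and in 7.85% of the 20084 genes above 0 in any library. A count of 1 in 10 is near this background. The difference was 0.22 among the 4 libraries whose files list tiny values and 0.04 between HET 2 and WT 2, and it came to 0.095 without HET 1. The 20 microglia markers, 0 of them at 0, summed to 563, 467 and 517 FPKM in HET 1 to HET 3, against 466, 505 and 513 FPKM in WT 1 to WT 3, with 15 of 20 positive differences and 0 past the threshold. HET 1 was thus the highest library for Tlr4 and for these markers, and their part in the Tlr4 values was not tested. In tissue RNA, more cells of a type and more RNA per cell cannot be told apart.

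The target genes spanned the widest range of levels. Il18 encodes a precursor cytokine of the interleukin 1 family that needs cleavage by caspase 1 to become active, and it was the highest of the 10 genes. It was at 20.7, 21.9 and 22.6 FPKM in HET 1 to HET 3, against 15.9, 21.1 and 18.7 FPKM in WT 1 to WT 3. The libraries labelled TonEBP+/- lay close together, and WT 2 fell within their range while WT 1 was the lowest. On the log2(FPKM + 1) scale Il18 had the largest difference of the 10 genes, 0.22 (SE 0.0986, 95% interval 0.001 to 0.442). Means were 21.7 ± 0.979 FPKM in libraries labelled TonEBP+/- and 18.6 ± 2.60 FPKM in wild-type libraries (SD, n = 3 each). With 0.1 added in place of 1, Nfkbiz (0.26) and Tlr4 (0.25) had larger differences than Il18 (0.23). The limma p of Il18 was 0.0491 unadjusted and 1.00 adjusted, beside 0.2 from a two-sided exact permutation test. No other of the 8 tested genes had an unadjusted limma value under 0.05, which 3.69% of all tested genes did. Without WT 1 the difference was 0.12 and without WT 2 it was 0.31, and it was 0.31 among the 4 libraries whose files list tiny values and 0.05 between HET 2 and WT 2. WT 1 and WT 2 were the lowest for perivascular macrophage and leukocyte markers, whose 15 genes summed to 10.1, 12.7 and 8.41 FPKM in HET 1 to HET 3 and 6.53, 6.49 and 9.63 FPKM in WT 1 to WT 3. Of those 15, only 5 passed the filter, 4 of them with positive differences and 0 past the threshold. Under 0.001 FPKM in at least 1 library were 7 (S100a8, S100a9, Cd3e, Cd3g, Cd8a, Cd79a and Ms4a1). The part of these cells, or of microglia, in the Il18 values was not tested.

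Icam1 encodes the adhesion molecule by which leukocytes hold on to activated endothelium. It was the lowest of the 10 genes, at 0.526, 0.304 and 0.721 FPKM in HET 1 to HET 3, against 0.285, 0.527 and 0.590 FPKM in WT 1 to WT 3. Both groups held 1 library near 0.3 FPKM and the ranges overlapped (log2 difference 0.05, two-sided exact permutation p = 0.8; 95% interval -0.26 to 0.35 from limma without the filter). The difference was 0.18 among the 4 libraries whose files list tiny values and -0.23 between HET 2 and WT 2. For a transcript of 2535 bases these values correspond to an estimated 7 to 23 fragments per library, which limits the precision of each value. Its exons overlap an antisense gene, Gm47079, which was not analysed here. The 15 endothelial markers, 0 of them at 0, summed to 110 to 125 FPKM in libraries labelled TonEBP+/- and 111 to 121 FPKM in wild-type libraries, with 7 of 15 positive differences.

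Of the 8 genes that passed the filter of 1 FPKM in 3 libraries, 0 had a limma adjusted p under 0.05, as did 0% of all 13122 genes tested, of which 484 had an unadjusted p under 0.05. Without HET 1, 8 genes of the whole table passed, and without HET 3, WT 1 or WT 2, 1 gene did, with 0 of the genes of this pathway among them. All 8 were lower in libraries labelled TonEBP+/-, and Adarb1, Plcb4, Plekhg1, Prkcd and Slc17a6 were thalamus markers, which were low in HET 2 and HET 3. That marker list was chosen with earlier results of these data known, so its overlap with these calls is a description. The part of thalamus tissue in these calls was not tested. The single genes were Rn45s without HET 3 (log2 difference -13.51), Snord57 without WT 1 (12.76) and Rims1 without WT 2 (0.80). With all 6 libraries, the difference was positive for 5 of the 8 NF-kB genes that passed the filter and for 50% of all tested genes. The median was 0.10 for these NF-kB genes and 0.00 for all. Nfkb2 and Icam1 did not pass the filter, and their differences were positive. The intervals bound what these libraries can show on the log2(FPKM + 1) scale. The SEs were 0.0985 to 0.142, against a median of 0.0991 over all tested genes. The intervals of the 8 tested NF-kB genes reach at most -0.42 (Rela) on the negative side and 0.47 (Relb) on the positive side. This scale understates differences of low genes. With 0.1 added in place of 1, the difference itself was -0.21 for Rela, 0.23 for Relb and 0.25 for Tlr4.

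**Figure D3:**
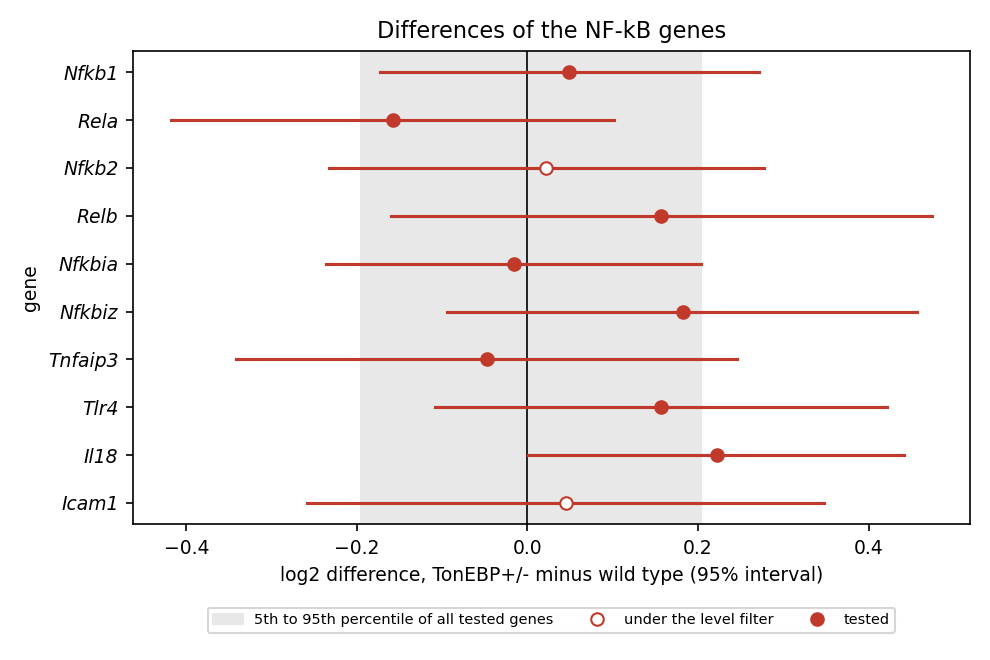
Log2 differences of the 10 genes, libraries labelled TonEBP+/- minus wild type, with 95% intervals from limma (open points, under the level filter, from the fit without that filter). The grey band spans the 5th to the 95th percentile of all tested genes, -0.20 to 0.20. The point of Il18, at 0.22, lies just outside the band and the other 9 inside it.

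The genes also differed from each other in level, which FPKM allows since it is scaled per length. Mean levels over the 6 libraries, in FPKM, put Il18 first at 20.2, Nfkbia next at 14.0 and Nfkb1 after it at 6.34, and each lay above the next gene in 6 of 6 libraries with no overlap of ranges. Rela followed at 2.83 FPKM, above Nfkbiz (2.10 FPKM) in 5 of 6 libraries. Nfkbiz and Relb (2.03 FPKM) could not be ordered, since each was higher in 3 libraries. Tlr4 at 1.48 FPKM and Tnfaip3 at 1.35 FPKM had overlapping ranges, with Tlr4 above in 5 of 6 libraries. Nfkb2 (0.853 FPKM) lay below Tnfaip3 and above Icam1 (0.492 FPKM) in 6 of 6 libraries, though the ranges of Nfkb2 and Icam1 overlapped. The level of Il18 exceeded that of 71.4% of the tested genes and that of Nfkbia that of 60.9%, while Tlr4 and Tnfaip3 exceeded 5.85% and 4.53%.

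No library moved all 10 genes one way. HET 3 was the highest library for 4 of them (Relb, Nfkbiz, Il18 and Icam1) and the lowest for Rela. WT 2 was the highest for 3 (Nfkb1, Nfkbia and Tnfaip3) and the lowest for Nfkb2. WT 3 was the lowest for 4 (Nfkb1, Relb, Tnfaip3 and Tlr4) and the highest for Rela. WT 1 was the lowest for 3 (Nfkbiz, Il18 and Icam1). Thalamus markers, low in HET 2 and HET 3, were lower in libraries labelled TonEBP+/- on average in 14 of 14 genes, and meningeal and fibroblast markers were higher in all 10 tested genes, with sums of 102, 166 and 141 FPKM in HET 1 to HET 3 and of 91.8 to 128 FPKM in wild-type libraries. Of the meningeal markers Dpt was under 0.001 FPKM in at least 1 library. Because the marker lists were chosen with earlier results of these data known, these counts are a description. The part of these tissues in the 10 genes was not tested.

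**Figure D4:**
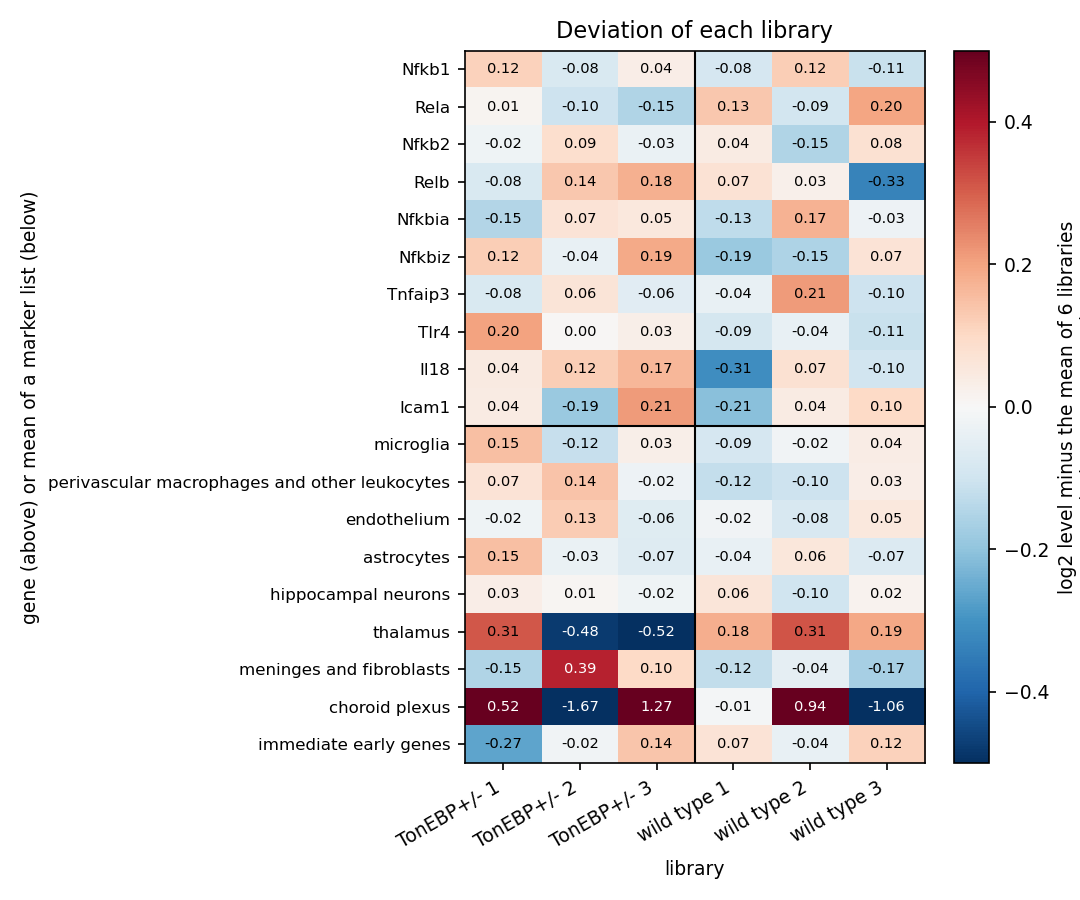
Deviation of each library from the mean of the 6 on the log2 scale, for the 10 genes (upper rows) and for the mean of each marker list (lower rows), with libraries labelled TonEBP+/- in the left 3 columns and colour that stops at 0.5. Il18 in WT 1 (-0.31) and Relb in WT 3 (-0.33) are the largest deviations among the 10 genes, and the choroid plexus row runs from -1.67 in HET 2 to 1.27 in HET 3.

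The rest of the pathway was examined through 6 lists holding 111 genes, of which 110 were listed and 62 passed the filter. Of those 62, 0 passed the limma test in either direction, 33 had a positive and 29 a negative difference, and the median was 0.01. The genotypes did not overlap in 8 of the 62 (12.9%, against 8.52% of all tested genes), with 3 higher in libraries labelled TonEBP+/- (background 4.13%) and 5 lower (background 4.39%). The 5 include Tnfrsf11a, which passed the filter through the wild-type libraries alone, so its place in the count is partly set by the filter. Among the remaining Rel and IkB genes 3 of 6 were tested. Nfkbib, which encodes IkB-beta, was at 9.69 FPKM in libraries labelled TonEBP+/- and 8.88 FPKM in wild-type libraries (log2 difference 0.11, SE 0.0926). Rel, which encodes the lymphoid subunit c-Rel, was at 1.60, 0.896 and 0.915 FPKM in HET 1 to HET 3, against 1.19, 1.38 and 1.31 FPKM in WT 1 to WT 3, with HET 1 the highest and the other libraries labelled TonEBP+/- the lowest. Nfkbil1, an IkB-like gene, had a difference of -0.02 (SE 0.0926).

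Kinases and adaptors had 12 positive and 10 negative differences among 22 tested genes (median 0.02). Chuk, which encodes the IKK-alpha kinase that marks p100 for processing in the alternative pathway, was at 8.62, 7.62 and 8.39 FPKM in HET 1 to HET 3, against 6.79, 7.31 and 6.50 FPKM in WT 1 to WT 3. The genotypes did not overlap, and the log2 difference of 0.23 (SE 0.0866, unadjusted p = 0.0261) had a limma adjusted p of 1.00. Bcl10, an adaptor of antigen receptor signalling, was at 4.06 FPKM in libraries labelled TonEBP+/- and 5.00 FPKM in wild-type libraries on average (log2 difference -0.24, SE 0.118). Tradd, an adaptor of the tumour necrosis factor receptor, was at 3.41 FPKM in libraries labelled TonEBP+/- and 2.72 FPKM in wild-type libraries, with overlapping ranges (log2 difference 0.25, SE 0.143).

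Brakes of the pathway had 5 positive and 6 negative differences among 11 tested genes. Pdlim2, a nuclear ubiquitin ligase that ends p65 activity, was at 13.9, 9.34 and 14.4 FPKM in HET 1 to HET 3, against 15.1, 15.1 and 16.1 FPKM in WT 1 to WT 3. The genotypes did not overlap, HET 2 was far below the others, and the log2 difference was -0.30 (SE 0.141, limma adjusted p = 1.00). The deubiquitinase gene Cyld had a difference of -0.12 (SE 0.0722) with genotypes that did not overlap, and Rnf11, a partner of A20, one of -0.11 (SE 0.0665). Receptors had 7 positive and 4 negative differences among 11 tested genes. Tnfrsf11a, which encodes the receptor RANK, was at 0.766, 0.863 and 0.787 FPKM in HET 1 to HET 3, against 1.12, 1.19 and 1.26 FPKM in WT 1 to WT 3 (log2 difference -0.28, SE 0.121, limma adjusted p = 1.00). It passed the filter through the wild-type libraries alone, so its lack of overlap is partly set by the filter. Ly96, which encodes MD-2, the lipopolysaccharide-binding partner of Tlr4, was at 2.78, 0.775 and 1.59 FPKM in HET 1 to HET 3 and at 1.82, 3.06 and 2.29 FPKM in WT 1 to WT 3. Its range in libraries labelled TonEBP+/- covered nearly that of all 6 (log2 difference -0.37, SE 0.266), and Tnfrsf1a, a tumour necrosis factor receptor gene, had a difference of 0.17 (SE 0.141).

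Most inflammatory target genes were near or under detection. Of 28 listed targets 9 were tested, 19 were under the filter, and 4 (Cxcl2, Sele, Csf2 and Saa3) were listed at 0 in all 6 libraries. Csf1, which encodes the growth factor of microglia and macrophages, was at 6.61, 6.37 and 6.35 FPKM in HET 1 to HET 3, against 6.26, 5.21 and 5.52 FPKM in WT 1 to WT 3. HET 3 lay just above WT 1, so that the genotypes did not overlap, and the log2 difference of 0.16 (SE 0.0917) had a limma adjusted p of 1.00. Gadd45b, a stress response gene, had a difference of -0.11 (SE 0.0794) and Sod2, the mitochondrial superoxide dismutase gene, one of -0.07 (SE 0.0627).

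In the interleukin 18 pathway 6 of 11 listed genes were tested. Il33, a cytokine of the same family that glia keep in the nucleus, was at 43.0, 33.4 and 44.4 FPKM in HET 1 to HET 3, against 48.3, 47.7 and 44.6 FPKM in WT 1 to WT 3. HET 2 was the lowest and HET 3 lay just under WT 3, so that the genotypes did not overlap, and the log2 difference of -0.22 (SE 0.103, limma adjusted p = 1.00) was opposite in sign to that of Il18. Casp1, whose product cleaves the Il18 precursor, was at 1.45, 4.21 and 1.72 FPKM in HET 1 to HET 3 and at 2.02, 1.56 and 1.40 FPKM in WT 1 to WT 3. HET 2 alone was high and the log2 difference was 0.30 (SE 0.270). Il18bp, which encodes a decoy that binds the mature cytokine, had a difference of 0.22 (SE 0.205). The receptor genes Il18r1 and Il18rap were under the filter.

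**Figure D5:**
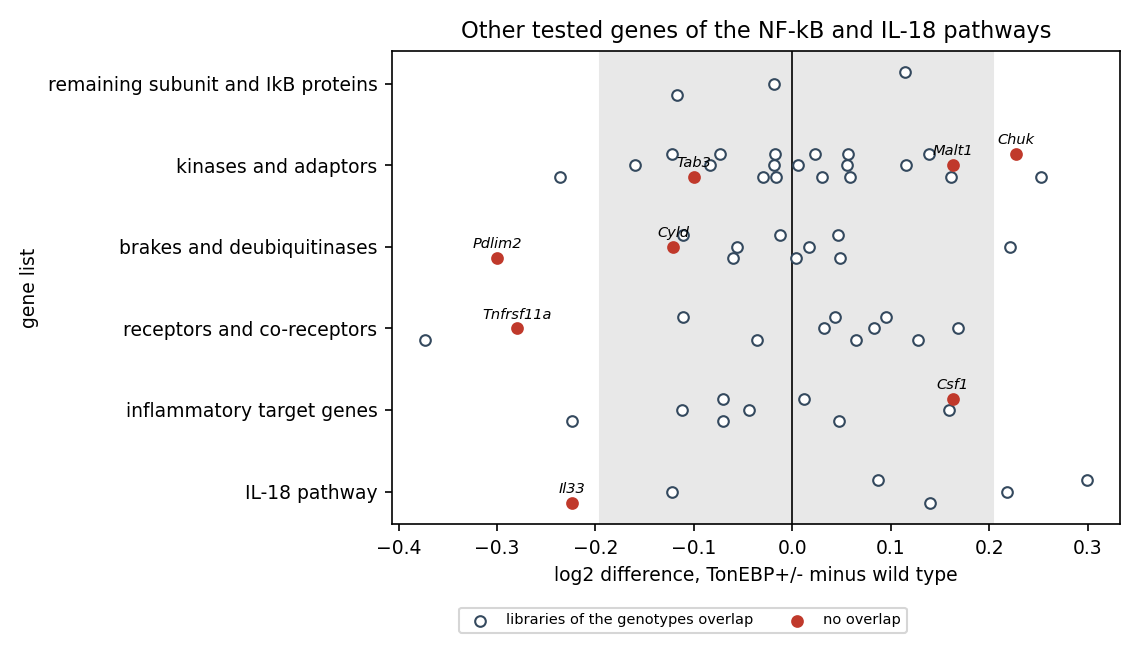
Log2 differences, libraries labelled TonEBP+/- minus wild type, of the 62 tested genes in 6 pathway lists, 1 point a gene, with the 5th to 95th percentile of all tested genes in grey. Filled and named points are the 8 genes in which the genotypes do not overlap, 3 on the positive side and 5 on the negative side. Among them, Tnfrsf11a passed the filter through the wild-type libraries alone.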

How the data were processed

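Per the labels' protocols, Trizol RNA went into a directional NEBNext Ultra II kit. The submitters' processing notes name TopHat and mm10. Nothing is given in the sources used here on the annotation, the abundance program or its strand setting. Each deposited table holds log2 values, taken here as log2(FPKM + 1) because they are never negative and low values fall in steps that scale with transcript length: 71.7% to 76.0% of genes under 3.5 steps lay within 0.15 of a whole step. Fragment numbers are estimates from that step and GENCODE vM21 transcript lengths.

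The 13122 genes that reached 1 FPKM in at least 3 libraries entered a limma fit (version 3.58.1, R 4.3.3) with genotype as its term and trended, robust eBayes. Benjamini-Hochberg adjustment covered all of them, at a threshold of 0.05. Differences are on the log2(FPKM + 1) scale, which understates those of low genes. Two-sided exact permutation tests used the 6 libraries. The members and gene lists were chosen with earlier results of these data known. Beside the members and Nfat5, the 3 genes with the smallest p in each pathway list are named, as are genes that passed with 1 library left out. Deviations from the group means correlated at -0.25 to -0.16 between same-numbered libraries and at 0.05 to 0.17 between the others. Such deviations cancel out within a group, so these correlations cannot decide whether the numbers pair libraries. The main fit held no pairing, and the replicate block named below treats same-numbered libraries as pairs. Figures used matplotlib 3.10.9 in Python 3.11.15.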

Additional observations from a re-analysis of the deposited data

How the results depend on the processing

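The count of 0 genes past the threshold held under quantile normalization, median scaling, no filter, a mean of at least 5 FPKM, a pseudocount of 0.1, no trend or robust option, and the replicate block (0 genes, 0 of them of the pathway). With 1 library left out it ranged from 0 to 8, being 8 without HET 1 and 1 without HET 3, WT 1 or WT 2, and 0 of these genes were among the 10 or in the 6 pathway lists. Il18, Tlr4, Nfkbiz, Relb and Rela kept their sign under every alternative run for them. With 1 library left out, Nfkb1 ranged from 0.003 to 0.123, Rela from -0.244 to -0.099, Relb from 0.029 to 0.234, Nfkbiz from 0.132 to 0.261, Tlr4 from 0.095 to 0.194, Il18 from 0.122 to 0.314, Nfkbia from -0.083 to 0.068, Tnfaip3 from -0.112 to 0.046, Nfkb2 from -0.048 to 0.065 and Icam1 from -0.051 to 0.15. Alternatives chosen after seeing the data were the 4 libraries whose files list tiny values, with opposite signs for Nfkbia (0.029), Tnfaip3 (0.003) and Nfkb2 (-0.085), and HET 2 against WT 2, with opposite signs for Nfkb1 (-0.20) and Icam1 (-0.228). The cause of these reversals was not tested. A pseudocount of 0.1 gave 0.25 for Tlr4, 0.26 for Nfkbiz, 0.23 for Relb, 0.11 for Icam1 and 0.05 for Nfkb2. Dropping the filter together with that pseudocount, also chosen after seeing the data, left 0 genes past the threshold. Quantile normalization and the stricter filter were not run for Nfkb2 and Icam1, and the stricter filter left no value for Rela, Relb, Nfkbiz, Tnfaip3 and Tlr4. DESeq2 was not run because the files hold no counts.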

Other observations

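In the pathway lists, 4 of the 48 genes under the filter had libraries of the genotypes that did not overlap, while 4 others of the 48 were at 0 in all libraries. Genotypes did not overlap in 7.85% of the 20084 genes above 0 in any library. The count is near that share, which also covers genes above the filter and none at 0 in all libraries. Those 4 (Il1a, Traf1, Tlr9 and Nlrp3) were all higher in libraries labelled TonEBP+/-, and no share by direction was taken for genes under the filter. The genes named here were chosen after their values were seen. Il1a, which encodes interleukin 1 alpha, was at 0.631, 0.748 and 0.674 FPKM in HET 1 to HET 3, against 0.328, 0.405 and 0.363 FPKM in WT 1 to WT 3, an estimated 7 to 17 fragments per library. In limma without the filter its log2 difference was 0.30 (SE 0.0881, unadjusted p = 0.00845, adjusted p = 1.00). Traf1, which encodes an adaptor induced by NF-kB, was at 0.263, 0.240 and 0.265 FPKM in HET 1 to HET 3, against 0.117, 0.0966 and 0.0868 FPKM in WT 1 to WT 3, an estimated 3 to 11 fragments (log2 difference 0.19, SE 0.0550, unadjusted p = 0.00795, adjusted p = 1.00 in limma without the filter). Tlr9 and Nlrp3 had differences of 0.11 and 0.07 on that scale, which understates those of such low genes. With a pseudocount of 0.1 the differences were 0.75 for Il1a, 0.83 for Traf1, 0.33 for Tlr9 and 0.28 for Nlrp3. The cytokine gene Tnf was at 0.159 and 0.218 FPKM in HET 1 and HET 2 and at 0.131 FPKM in WT 3, and under 0.001 FPKM in the other 3 libraries, so the genotypes overlapped. Other genes under the filter were lower on average in libraries labelled TonEBP+/-. Ccl4 was at 0.243, 0 and 0.154 FPKM in HET 1 to HET 3, against 0.356, 0.223 and 0.401 FPKM in WT 1 to WT 3, with overlapping ranges. With a pseudocount of 0.1 its difference was -1.03, beside -0.77 for Cxcl1, -0.595 for Ccl5 and -0.57 for Cd40.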
